A study of Columba livia with 6 samples.

Results

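The DNA repair pathways, together with BRCA1 and its partner BARD1, were described in the ovaries of domestic pigeons (Columba livia) that differed in egg laying. A locus was a member when its KEGG annotation listed base excision repair, nucleotide excision repair, mismatch repair, homologous recombination, non-homologous end joining or the Fanconi anemia pathway, or when it was named BRCA1 or BARD1. Loci that KEGG also places in the cell cycle were left out, which removed 11 loci. A total of 153 members were found among 34346 loci. They comprised 32 loci of base excision repair, 43 of nucleotide excision repair, 19 of mismatch repair, 42 of homologous recombination, 14 of non-homologous end joining and 49 of the Fanconi anemia pathway, and 34 members stood in more than 1 pathway.

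The RNA came from ovary samples of 6 birds, with 1 bird for each library. There were 3 high-laying birds (the HP group, ovaries HP1 to HP3) and 3 low-laying birds (the LP group, ovaries LP4 to LP6). All 6 birds were 2 years old, sexually mature and untreated. Ribosomal RNA was depleted, and a count of reads and an FPKM value (fragments scaled to locus length and library size) were deposited for each locus in each ovary. Ovary tissue mixes oocytes, follicle cells and stroma, so fewer cells of a type and less RNA per cell cannot be told apart. The p-values set the difference between the groups against the spread between these birds, which the tests estimate with information shared across loci.

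Repair pathways are divided by the kind of damage they remove. In base excision repair, a glycosylase cuts out a single altered base and the gap is filled, whereas nucleotide excision repair removes a short strand around bulky damage such as that left by ultraviolet light. Mismatch repair corrects errors of replication. Breaks of both strands are either rejoined directly by end joining, which begins with the Ku heterodimer, or copied from a sister or homologous chromosome by recombination, in which BRCA1 and BARD1 act early and BRCA2 later. The Fanconi anemia proteins unhook crosslinks between strands. In the ovary, recombination is also used for meiosis, which avian oocytes begin around hatching.

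The total count of an ovary was between 97875183 and 108669967. Of the 153 members, 149 passed the filter of a mean FPKM of at least 0.1 and were tested, and 144 of these had at least 100 counts in every ovary. The loci not tested were RBP3, SHISA8, ANKDD1B and LOC110365708, all of them described as other proteins. The description of 112 members named a protein of the repair pathways, and 29 were described as another protein to which KEGG gives a repair entry. A further 7 were classed as joined with a neighbouring gene and 5 as uncharacterized. Some loci with joined names, such as those of TOP3B and RAD54L, were placed by their description in the other classes. The labelled tissue was reflected in marker genes. The summed level of 15 loci of the oocyte and germ cell list was between 1106 and 1613 CPM in HP ovaries and between 1036 and 1302 CPM in LP ovaries, where CPM is the count scaled to library size by TMM (counts per 1e6 reads). The ovaries also differed in marker lists of neighbouring tissue, and the source of that RNA was not tested. A kidney list of 10 loci summed to 611 CPM in HP2 and to between 73.5 and 116 CPM in the other ovaries, and a list of adrenal genes was highest in HP3 with 196 CPM, followed by LP5 with 121 CPM.

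BRCA1 and BARD1 form a ubiquitin ligase that takes part in the choice of recombination over end joining. BRCA1 lay on the plus strand of scaffold NW_004973939.1 of Cliv_1.0, at 729728 to 748147, and overlapped no other locus. It had 103, 120 and 135 CPM in HP1, HP2 and HP3, against 129, 80.8 and 91.0 CPM in LP4, LP5 and LP6. LP4 reached the level of the HP ovaries and LP5 was the lowest, so the groups overlapped. The log2 fold change of HP over LP was 0.26 with a standard error of 0.20, and edgeR's quasi-likelihood test gave an adjusted p of 0.749. BARD1, on scaffold NW_004973256.1 at 6035618 to 6078366 of the plus strand, had 39.2, 44.0 and 54.7 CPM in HP ovaries and 31.9, 35.0 and 42.3 CPM in LP ovaries, listed by ovary number as in all values that follow. Of the LP ovaries, LP6 alone exceeded an HP ovary, HP1. The log2 fold change was 0.34 ± 0.17 (SE), with an unadjusted p of 0.095 and an adjusted p of 0.647 by edgeR.

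The level of BRCA2, which acts on the resected single strand, was spread over the ovaries much as that of BRCA1. It was 94.5, 105 and 113 CPM in HP ovaries and 105, 75.3 and 73.8 CPM in LP ovaries, with LP4 again among the HP ovaries and the other LP birds below them all. Here the log2 fold change was 0.30 ± 0.16 (SE), with an adjusted p of 0.662 by edgeR. PALB2, which links BRCA1 to BRCA2, differed less, with 35.5, 39.8 and 40.2 CPM in HP ovaries and 33.7, 33.1 and 38.3 CPM in LP ovaries.

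**Figure D1:**
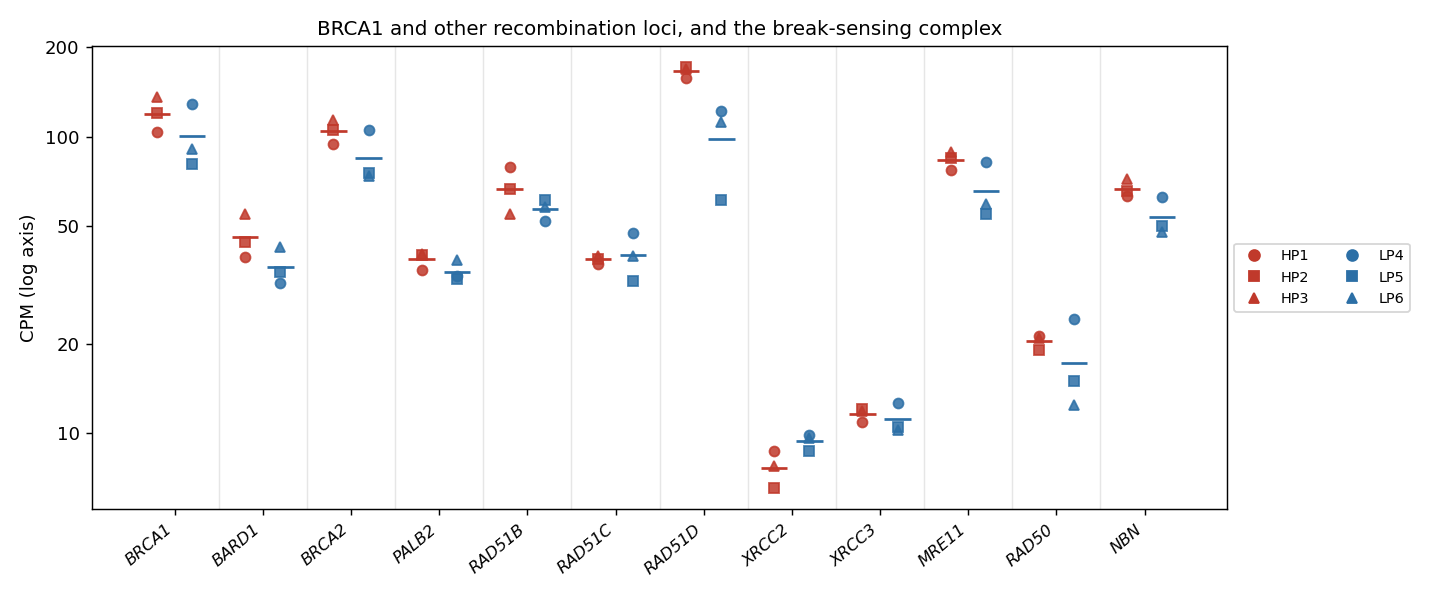
Scaled counts (CPM, log axis) of BRCA1, BARD1, BRCA2, PALB2, RAD51B, RAD51C, RAD51D, XRCC2 and XRCC3, and of the complex of MRE11, RAD50 and NBN, in each HP ovary (red, left) and LP ovary (blue, right), with a bar at each group mean. RAD51D and NBN are the loci whose groups do not overlap, and LP4 lies among or above the HP ovaries for BRCA1, BRCA2, MRE11 and RAD50.

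RAD51B, RAD51C, RAD51D, XRCC2 and XRCC3, which act together in recombination, did not share a direction. RAD51D had the largest positive log2 fold change of the homologous recombination loci. It had 158, 172 and 169 CPM in HP ovaries, against 122, 61.3 and 112 CPM in LP ovaries. All HP ovaries were above all LP ovaries, and LP5 was far below the other LP birds. HP exceeded LP by a log2 fold change of 0.76 ± 0.25 (SE), a fold of 1.69, with an unadjusted p of 0.021 and an adjusted p of 0.584 by edgeR. Without HP2 the unadjusted p was 0.050, just past the threshold. The locus lay on scaffold NW_004973261.1 at 1629936 to 1637935 of the plus strand and overlapped no other locus. In contrast, XRCC2, which joins RAD51D in a complex, had 8.71, 6.52 and 7.71 CPM in HP ovaries and 9.85, 8.69 and 9.59 CPM in LP ovaries, where HP1 and LP5 were level and the rest of the HP ovaries were lower. RAD51B, RAD51C and XRCC3 had log2 fold changes of 0.23, -0.05 and 0.06, with overlapping groups.

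The complex of MRE11, RAD50 and NBN detects broken ends and starts their resection. MRE11, the nuclease, had 77.1, 84.6 and 88.8 CPM in HP ovaries, against 82.2, 54.8 and 59.1 CPM in LP ovaries. RAD50, the ATPase of the complex, had 21.3, 19.1 and 20.9 CPM in HP ovaries and 24.3, 15.0 and 12.5 CPM in LP ovaries. LP5 and LP6 were below every HP ovary for both genes and LP4 was not. NBN, the subunit that recruits damage signalling, had 62.9, 65.3 and 72.1 CPM in HP ovaries and 62.7, 49.9 and 47.6 CPM in LP ovaries. Its groups did not overlap, although HP1 and LP4 were nearly equal, and its log2 fold change was 0.32 ± 0.14 (SE) with an adjusted p of 0.608 by edgeR. The differences in these genes depended on which bird was left out. The log2 fold change of BRCA1 was between 0.12 without LP5 and 0.48 without LP4, and that of RAD50 between 0.06 without LP6 and 0.57 without LP4. BRCA2 had 0.21 without LP6 and 0.49 without LP4, and MRE11 had 0.24 without LP5 and 0.55 without LP4.

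Over all 149 tested members, 0 had an adjusted p under 0.05 by edgeR, DESeq2 or limma, and the share among all 28274 tested loci was 0.0106% by edgeR. Over all tested loci this threshold was met by 3 loci with edgeR, 385 with DESeq2 and 6 with limma on log2(FPKM + 1), and the lowest adjusted p of a member was 0.572, 0.071 and 0.462 in these fits, in that order. At an unadjusted p under 0.05 by edgeR, 7 members were higher in HP ovaries, a share of 4.7% against 4.74% of all tested loci. There were 3 members lower in HP ovaries, a share of 2.01% against 3.5% of all tested loci. In either direction the background was 8.24%, and among the other loci with a KEGG pathway it was 5.18% higher and 4.21% lower. These shares lay at or below the background, so in this fit the number of low p-values is not a result about repair. The count depended on single birds and on the test. It was 22 members without LP4, or 14.8% against 8.59% of all tested loci, and 4 without LP5, or 2.70% against 6.77%. With limma on log2(FPKM + 1) it was 18 members, or 12.1% against 8.75%. No member met an unadjusted p under 0.05 together with an absolute log2 ratio of mean FPKM of at least 1, which 3.11% of all tested loci met. All log2 fold changes were under 1 in size, and 140 were under 0.5.

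The direction of the small differences was less even. The log2 fold change was above 0 in 108 members, or 72.5%, against 49.0% of all tested loci and 52.2% of the 5560 other tested loci with a KEGG pathway. The groups did not overlap in 18 members that were higher in HP ovaries, or 12.1%, against 7.36% of all tested loci. They did not overlap in 4 members that were lower in HP ovaries, or 2.68%, against 7.17% of all tested loci. The shares among the other KEGG loci were 8.35% and 7.48%, and 14.5% of all tested loci did not overlap in either direction. The median log2 fold change of the members was 0.11, whereas that of all tested loci was -0.01. It stood between 0.07 and 0.14 when single ovaries were left out. Loci of a pathway are measured in the same 6 ovaries and are not independent, so no test was made of these shares.

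By pathway, the median log2 fold change was lowest in base excision repair with 0.05 and highest in non-homologous end joining with 0.19. It was 0.18 in homologous recombination, 0.16 in mismatch repair, 0.12 in the Fanconi anemia pathway and 0.11 in nucleotide excision repair. The share of tested loci above 0 was 56.2% in base excision repair (18 of 32), 71.4% in nucleotide excision repair (30 of 42) and 84.2% in mismatch repair (16 of 19). It was 78.6% in homologous recombination (33 of 42), 84.6% in end joining (11 of 13) and 76.6% in the Fanconi anemia pathway (36 of 47). Leaving out single ovaries moved these medians. Base excision repair had 0.01 without LP5 and 0.09 without HP2, end joining 0.11 without HP1, mismatch repair 0.10 without HP3 and 0.11 without LP6, and without HP3 the medians were 0.08 in homologous recombination and 0.07 in both nucleotide excision repair and the Fanconi anemia pathway. The members described as repair proteins gave 87 of 112 loci above 0, and the 7 loci classed as joined with a neighbouring gene gave 1 of 7. Other loci with joined names stood in the remaining classes, so these counts depend on how the classes were assigned. Differences between the pathways were not tested.

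**Figure D2:**
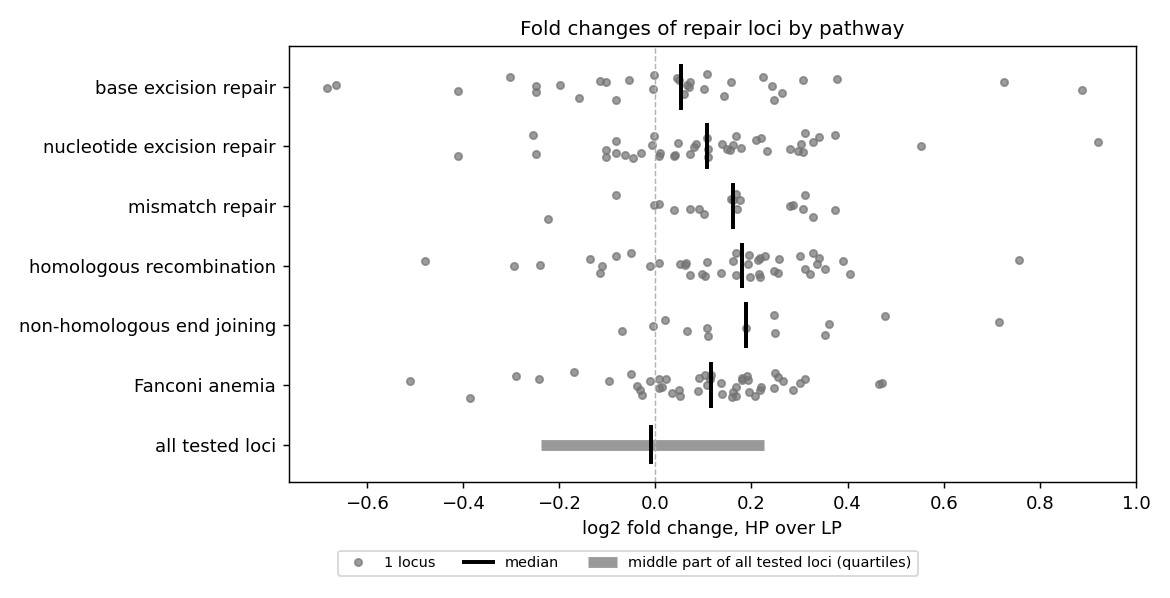
Log2 fold change of HP over LP for each tested locus of the 6 repair pathways (points, with a vertical bar at the median), and the median and quartiles of all 28274 tested loci in the lowest row. The medians lie between 0.05 in base excision repair and 0.19 in non-homologous end joining, and loci of several pathways appear in each.

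Among the members with an unadjusted p under 0.05, XRCC5 encodes Ku80, the larger Ku subunit that binds broken ends. XRCC5 had 57.7, 92.1 and 73.9 CPM in HP ovaries, against 50.8, 36.7 and 48.9 CPM in LP ovaries. All HP ovaries were higher, HP2 most and HP1 least, and LP5 was the lowest. By edgeR the log2 fold change was 0.71 ± 0.21 (SE), a fold of 1.64, with an unadjusted p of 0.012 and an adjusted p of 0.573. Its p was under 0.05 in all 13 alternative fits. XRCC5 stood on scaffold NW_004973190.1 at 34436 to 89516 of the plus strand, and 3921 bases of it were shared with LOC110360099 on the other strand, which had at most 3.15 CPM in any ovary.

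The other loci of end joining differed less. XRCC6, which encodes Ku70, the partner of Ku80, had 66.2, 95.8 and 123 CPM in HP ovaries and 106, 43.6 and 90.1 CPM in LP ovaries. Its groups overlapped widely, with LP5 below the rest, and without LP5 its log2 fold change was -0.05 in place of 0.25. DNTT, the terminal transferase that adds bases at the joints of antigen receptor genes, had 19.5, 30.7 and 19.3 CPM in HP ovaries and 15.9, 16.6 and 17.4 CPM in LP ovaries. The groups of DNTT did not overlap, and HP2 stood apart. LIG4, the ligase of the pathway, had a log2 fold change of 0.19, XRCC4, its cofactor, of 0.11, NHEJ1, which aligns the ends, of 0.02, and DCLRE1C, the Artemis nuclease, of 0.11. The lowest log2 fold change among the end joining loci was -0.07, for SHISA6, a locus described as the membrane protein shisa-6.

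**Figure D3:**
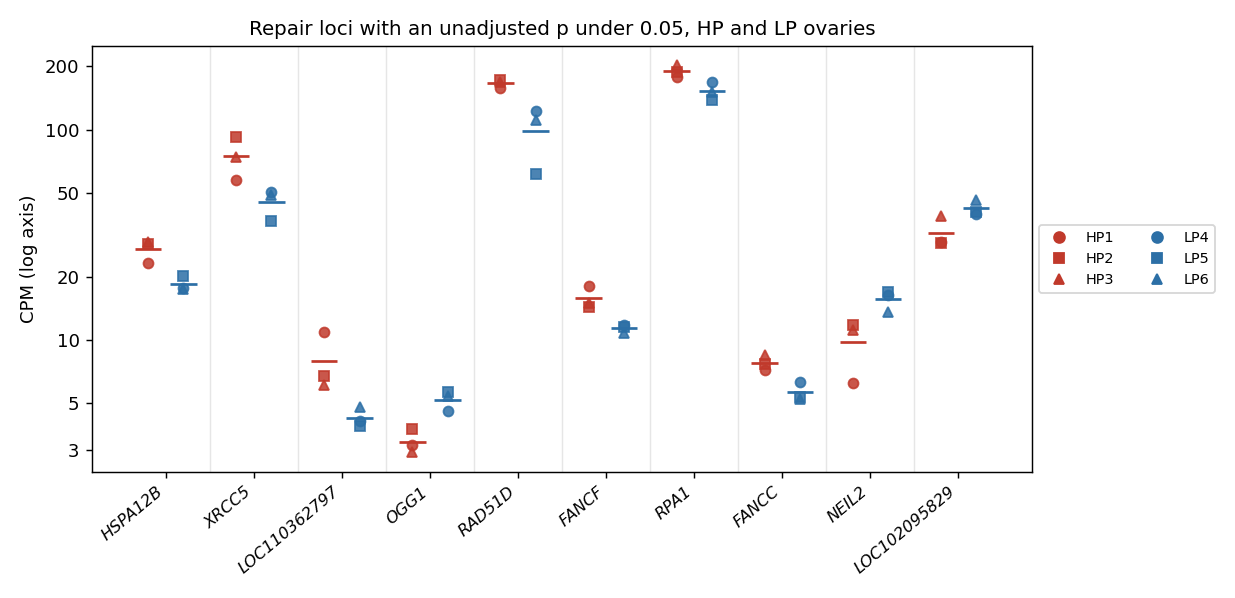
Scaled counts (CPM, log axis) in each HP ovary (red, left) and LP ovary (blue, right), with group means as bars, for the 10 repair loci with an unadjusted p under 0.05, in the order of p. In all 10 the groups do not overlap, 7 being higher in HP ovaries and OGG1, NEIL2 and LOC102095829 lower, and none has an adjusted p under 0.572. These loci were chosen by p in the same ovaries, so their separation is no further support.

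In base excision repair, OGG1, NEIL2 and NTHL1, which remove oxidised bases, and MUTYH, which removes a base opposite one, averaged lower in HP ovaries. NEIL1, which also removes oxidised bases, and TDG, which acts on oxidised methylcytosine among others, averaged higher. This set of glycosylases was picked out after its values were seen. NEIL3 was among the loci but was not a member, and its values are not given here. OGG1, which removes 8-oxoguanine, had 3.18, 3.77 and 2.93 CPM in HP ovaries, against 4.58, 5.64 and 5.41 CPM in LP ovaries. The HP ovaries were all lower, by a log2 fold change of -0.66 ± 0.21 (SE), a fold of 0.632, with an unadjusted p of 0.017 and an adjusted p of 0.584 by edgeR. Leaving out HP3 or LP5 brought its p above 0.05. OGG1 lay on scaffold NW_004973446.1 at 2560744 to 2562228 of the plus strand, with no overlapping locus.

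NEIL2, a glycosylase for oxidised pyrimidines, had 6.28, 11.8 and 11.2 CPM in HP ovaries and 16.4, 16.9 and 13.6 CPM in LP ovaries. HP1 was the lowest by far, and the groups did not overlap. Its log2 fold change was -0.68 ± 0.27 (SE), the most negative of all tested members, with an unadjusted p of 0.040 and an adjusted p of 0.595 by edgeR, and p was above 0.05 without HP1, LP4 or LP5. It lay on scaffold NW_004973941.1 at 159642 to 162528 of the minus strand, and a second locus with the name NEIL2 shared 778 bases with it on the other strand. That second locus, which is not a member, had 1.43, 2.16 and 1.51 CPM in HP ovaries and 3.68, 4.14 and 1.32 CPM in LP ovaries. The methods do not state whether the counting used the strand, so reads of the pair of loci cannot be told apart.

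MUTYH, which removes adenine opposite 8-oxoguanine, had 9.53, 8.46 and 9.42 CPM in HP ovaries and 10.6, 12.2 and 9.77 CPM in LP ovaries. Its groups were separated by a small gap, with a log2 fold change of -0.25 ± 0.17 (SE) and an adjusted p of 0.717 by edgeR. NTHL1, another glycosylase for oxidised pyrimidines, had 8.44, 9.16 and 6.44 CPM in HP ovaries and 10.4, 8.56 and 10.7 CPM in LP ovaries, and here LP5 lay among the HP ovaries. NEIL1 did not share this direction, with 9.23, 11.7 and 12.2 CPM in HP ovaries and 7.20, 8.95 and 13.8 CPM in LP ovaries.

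The other member glycosylases were level or on the higher side. MPG, which removes alkylated purines, had 19.2, 23.4 and 18.1 CPM in HP ovaries, against 16.5, 16.2 and 14 CPM in LP ovaries. Its groups did not overlap, and its log2 fold change was 0.38 ± 0.16 (SE) with an adjusted p of 0.611 by edgeR. TDG, which acts on thymine opposite guanine and on oxidised methylcytosine, had 29.4, 33.5 and 35.4 CPM in HP ovaries and 26.0, 26.9 and 31.2 CPM in LP ovaries, with LP6 above HP1. Further loci, LOC102090589 and LOC110358245, were described as the same enzyme and had log2 fold changes of 0.16 and 0.26 with overlapping groups, and reads shared between such copies may have been split by the counting. MBD4, of similar substrate, had a log2 fold change of 0.07. Of the later steps, POLB, which fills the gap, had a log2 fold change of 0.11, and LIG3, which seals it, of 0.04. APEX1, APEX2, XRCC1 and PARP2 were not found among the loci by name, and PARP1 and PCNA were found but were not members. KEGG also places POLE, POLE2 and POLE4 in this pathway, with log2 fold changes of -0.41, 0.31 and -0.10. The groups of POLE2 did not overlap. The locus of UNG, the uracil glycosylase, was joined with the neighbouring ACACB and its value cannot be assigned to UNG.

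**Figure D4:**
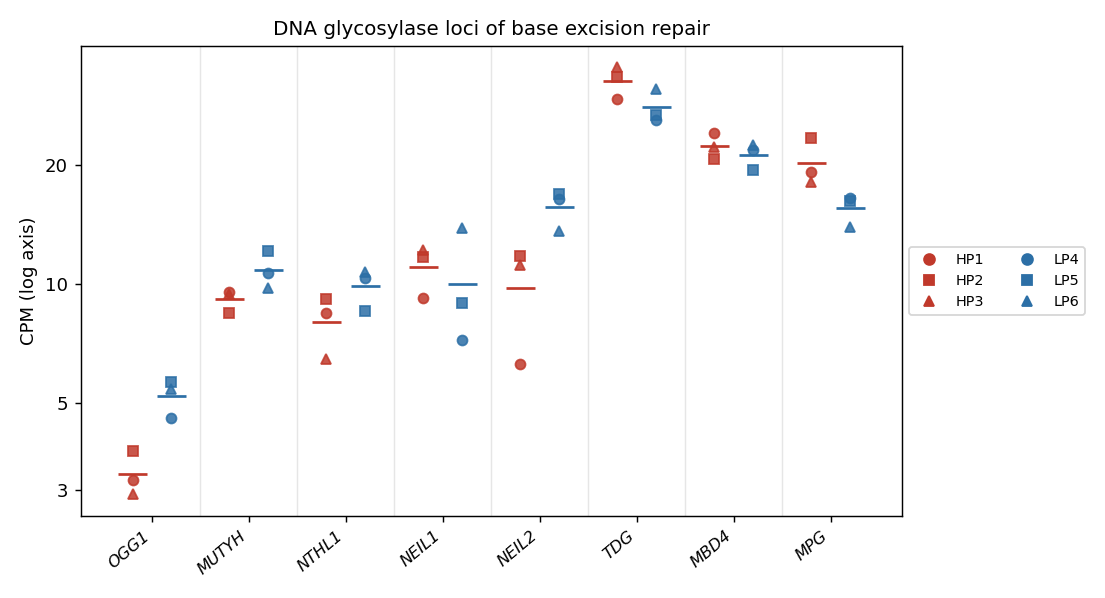
Scaled counts (CPM, log axis) of the 8 member glycosylase loci that carry a gene symbol of their own, in each HP ovary (red, left) and LP ovary (blue, right), with group means as bars. OGG1, MUTYH and NEIL2 are lower in all HP ovaries, and MPG is higher in all HP ovaries.

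The base excision locus with the largest positive log2 fold change was LOC110362797, an uncharacterized locus with the KEGG entry of TDG. It had 10.9, 6.75 and 6.10 CPM in HP ovaries and 4.13, 3.91 and 4.80 CPM in LP ovaries. HP1 stood well above the rest, and the log2 fold change was 0.89 ± 0.27 (SE) with an adjusted p of 0.584 by edgeR. The locus overlapped no other, and no protein of the repair pathways is named in its description.

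In nucleotide excision repair, the damage sensors showed no separation. XPC, which finds distorted DNA, had 43.9, 45.9 and 42.2 CPM in HP ovaries and 38.1, 41.0 and 45.3 CPM in LP ovaries. XPA, which verifies the damage, had a log2 fold change of -0.05, DDB2, the sensor of ultraviolet lesions, of 0.08, and ERCC6, which acts where RNA polymerase stalls, of 0.05. Of the nucleases that cut on each side of the damage, ERCC4 had 75.2, 75.8 and 80.1 CPM in HP ovaries and 74.2, 68.7 and 66.8 CPM in LP ovaries. Its groups did not overlap, yet the difference was small, with a log2 fold change of 0.14 ± 0.09 (SE). ERCC5 had a log2 fold change of 0.30 with overlapping groups. The helicases ERCC2 and ERCC3, which open the strands, had log2 fold changes of 0.16 and 0.01.

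RPA1, the large subunit of the protein that covers single-stranded DNA in excision, mismatch repair and recombination, was among the members with a low unadjusted p. It had 177, 188 and 202 CPM in HP ovaries, against 168, 139 and 151 CPM in LP ovaries. HP1 and LP4 were close, and the groups did not overlap. The log2 fold change was 0.31 ± 0.11 (SE), with an unadjusted p of 0.029 and an adjusted p of 0.586 by edgeR. Its unadjusted p passed 0.05 without any one of HP2, HP3, LP5 or LP6. The other subunits, RPA2 and RPA3, had log2 fold changes of 0.01 and 0.16. RPA1 lay on scaffold NW_004973261.1 at 2665719 to 2688222 of the plus strand and shared 16 bases with SMYD4.

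The smallest unadjusted p of all members belonged to HSPA12B, a heat shock protein with the KEGG entry of the CUL4 ubiquitin ligase scaffold. HSPA12B had 23.3, 28.6 and 29.1 CPM in HP ovaries and 17.6, 20.2 and 17.4 CPM in LP ovaries, without overlap. Its log2 fold change was 0.55 ± 0.15 (SE), with an unadjusted p of 0.0090 and an adjusted p of 0.572 by edgeR, and p was under 0.05 in all 13 alternative fits. The scaffold proteins themselves, CUL4A and CUL4B, had log2 fold changes of 0.21 and 0.11. The largest log2 fold change of all tested members, 0.92 ± 0.42 (SE), was that of LOC110356317, an uncharacterized locus of 1.19 to 4.50 CPM whose groups overlapped. It was 1.46 without LP6 and 0.13 with limma on log2(FPKM + 1). POLE, the leading-strand polymerase, had the lowest value of this pathway, with 47.9, 37.1 and 32.2 CPM in HP ovaries and 40.2, 69.0 and 46.6 CPM in LP ovaries, where LP5 was the highest and HP1 exceeded LP4 and LP6.

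Mismatch repair had the largest share of loci, 52.6%, for which LP5 and LP6 were both below the other ovaries. MSH6, a subunit of the mismatch sensor, had a log2 fold change of 0.17. A joined locus described as MLH3, which also acts in meiotic crossing over, had 27.4, 26.1 and 24.8 CPM in HP ovaries. It had 23.2, 18.2 and 21.9 CPM in LP ovaries, so the groups did not overlap. This locus, LOC102087214 joined with LOC110358715, spanned 73401 bases and overlapped 4 other loci, 2 of them on the other strand. Its value cannot be assigned to MLH3 alone. RFC1, the large subunit of the clamp loader, had the largest positive value with 204, 180 and 198 CPM in HP ovaries and 181, 149 and 119 CPM in LP ovaries. LP4 and HP2 were level, and the log2 fold change was 0.37 ± 0.17 (SE). The most negative value, -0.22, belonged to LOC110363051, a locus of at most 0.333 CPM, and it was 0.05 without HP2.

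In the Fanconi anemia pathway, 2 proteins of the core complex, which marks FANCD2 and FANCI with ubiquitin, were among the members with a low unadjusted p. FANCF had 18.0, 14.4 and 15.0 CPM in HP ovaries, against 11.8, 11.5 and 10.9 CPM in LP ovaries. The LP ovaries were nearly equal, and all HP ovaries were higher, by a log2 fold change of 0.47 ± 0.16 (SE), with an unadjusted p of 0.022 and an adjusted p of 0.584 by edgeR. FANCC had 7.20, 7.72 and 8.46 CPM in HP ovaries and 6.29, 5.37 and 5.26 CPM in LP ovaries, also without overlap, and its log2 fold change was 0.47 ± 0.18 (SE) with an unadjusted p of 0.040 and an adjusted p of 0.595 by edgeR. The p of FANCF passed 0.05 without HP1, LP5 or LP6, and that of FANCC without any one of HP1, HP2, HP3, LP5 or LP6.

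Other loci of the core complex had smaller values. FANCA, FANCB, FANCL and FANCM had log2 fold changes of -0.03, 0.25, 0.25 and 0.09, all with overlapping groups. FANCG and FANCE were joined with neighbouring genes. FANCD2, the target of the complex, had 38.9, 38.4 and 39.3 CPM in HP ovaries and 30.8, 40.4 and 44.2 CPM in LP ovaries, so the HP birds were alike and the LP birds spread on each side of them. FANCI, its partner, had a log2 fold change of 0.02, and UBE2T, the ubiquitin-conjugating enzyme, of -0.29 ± 0.30 (SE). The HES transcription factors, to which KEGG also gives a Fanconi entry, averaged lower in HP ovaries. LOC102095829, described as HES-1, had 29.1, 29.1 and 39.1 CPM in HP ovaries and 39.7, 40.8 and 46.4 CPM in LP ovaries, and its log2 fold change was -0.39 ± 0.16 (SE) with an unadjusted p of 0.048 and an adjusted p of 0.602 by edgeR. That p was under 0.05 in 4 of 13 alternative fits. HES4 had 22.1, 19.3 and 32.2 CPM in HP ovaries and 30.2, 32.5 and 42.2 CPM in LP ovaries, where HP3 reached the LP range.

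The BRCA1-A complex, which holds BRCA1 at ubiquitin marks near breaks, was mixed. ABRAXAS1, its scaffold, had 11.7, 12 and 14.4 CPM in HP ovaries and 11.2, 9.63 and 7.95 CPM in LP ovaries. BABAM2, a core subunit, had 68.5, 57.0 and 61.3 CPM in HP ovaries and 53.7, 53.4 and 49.3 CPM in LP ovaries. Neither overlapped between the groups, and the adjusted p was 0.628 and 0.611 by edgeR. BABAM1, UIMC1 and BRCC3, the other subunits, had log2 fold changes of -0.14, -0.11 and 0.10, with overlapping groups. The topoisomerase locus of TOP3B, with 73.0, 77.7 and 71.0 CPM in HP ovaries and 65.4, 61.7 and 63.6 CPM in LP ovaries, also did not overlap between the groups. The lowest value of homologous recombination, -0.48 ± 0.20 (SE), was that of RBBP8NL, a relative of the resection factor RBBP8, whose own log2 fold change was 0.20.

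The difference between the groups was carried more by some ovaries than by others. For each locus the log2 CPM was set against its mean over the 6 ovaries, and the median over the members was taken. It was 0.00, 0.06 and 0.11 across HP1 to HP3, against 0.01, -0.12 and -0.04 across LP4 to LP6. LP4 and HP1 were thus nearly level, and LP5 was the lowest. LP5 was the lowest ovary for 42 of 149 members, or 28.2%, against 17.3% of all tested loci, and HP3 was the highest for 43, or 28.9%, against 16.0%. Of the 5560 other tested loci with a KEGG pathway, LP5 was the lowest for 1183 and HP3 the highest for 1106. LP5 and LP6 were the lowest pair for 24.8% of the members and 10.3% of all tested loci. In homologous recombination that share was 40.5%, and in base excision repair it was 9.38%.

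Other lists of genes differed across the same ovaries. A list of 28 cell division loci that are not members had a median log2 fold change of 0.31, with 5 loci higher and 0 lower at an unadjusted p under 0.05 by edgeR, and 0 at an adjusted p under 0.05. Its summed level was 2942, 3366 and 3685 CPM in HP ovaries and 3135, 2602 and 2873 CPM in LP ovaries. It was highest in HP3 and lowest in LP5, as the repair loci were. The summed level of the oocyte and germ cell list was also highest in HP3, with 1613 CPM, and lowest in LP5, with 1036 CPM. This list had a median log2 fold change of 0.18, and 2 of its 15 loci were higher and 0 lower at that threshold. The 2 were PIWIL1, whose groups did not overlap, and ZP1. ZP1 had 17.1 CPM in HP2 and at most 0.111 CPM in any other ovary, so its value rests on 1 bird. A list of 10 stroma and smooth muscle loci had a median of -0.90, with 6 lower and 0 higher, and summed to 3024, 1717 and 2494 CPM in HP ovaries and 4169, 5530 and 2911 CPM in LP ovaries. LP5 was the highest here. An endothelium list had a median of -0.29, with 2 of 8 loci lower and 0 higher at that threshold. A list of 13 immediate early and stress loci had a median of -0.30, with 5 lower and 1 higher. Its lower loci were FOS, FOSL2 and GADD45B, CDKN1A, an inhibitor of the cell cycle, and the joined locus of MDM2, which restrains p53, and the higher one was the chaperone HSPH1. The part of cell division, germ cells, stroma, endothelium or stress genes in the levels of the repair loci was not tested.

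**Figure D5:**
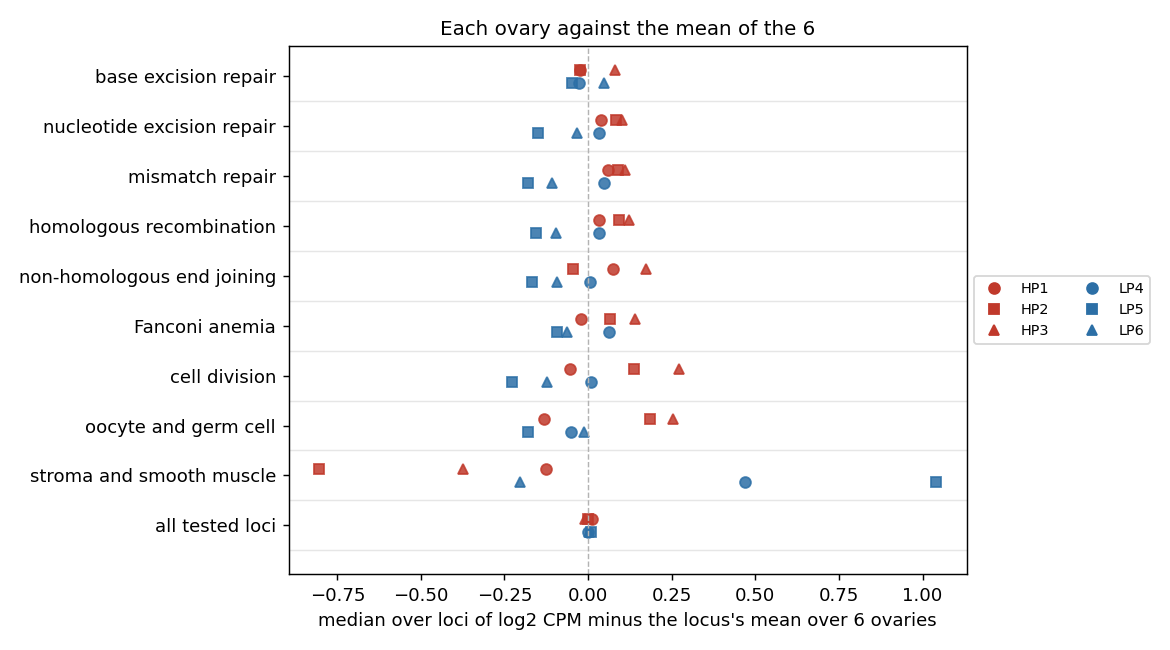
Median over loci of the log2 CPM minus the mean of the locus over the 6 ovaries, for each HP ovary (red, upper) and LP ovary (blue, lower), by repair pathway and for 3 lists of other genes and all tested loci. LP5 is lowest and HP3 highest in each of the 6 repair pathways. The same holds for the cell division list and for the oocyte and germ cell list, whereas the stroma and smooth muscle list is highest in LP5.

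Genes that work beside the pathways and are not members were close to the members. Loci left out of the members for the cell cycle pathway were not removed from these lists. Of 25 such loci for damage signalling, 19 had a log2 fold change above 0 with a median of 0.11, and at an unadjusted p under 0.05 by edgeR 1 was higher and 0 were lower. That locus was SMARCAL1, which restarts stalled replication forks, with 91.8, 106 and 114 CPM in HP ovaries and 84.7, 69.3 and 77.7 CPM in LP ovaries. Of 16 loci for translesion synthesis and direct reversal, 2 were higher and 0 lower, namely PRIMPOL, a primase that restarts replication, and 1 of 3 loci of MGMT, which removes methyl groups from guanine. The log2 fold changes of the MGMT loci were 0.50, 0.51 and -0.63. LP4 stood apart in the loci of 0.51 and -0.63, as the lowest with 1.56 CPM and the highest with 16.7 CPM. No locus of either list had an adjusted p under 0.05.

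FPKM did not give a common scale between loci, so differences between HP and LP ovaries were read within a locus. The count of a locus divided by its FPKM implied a length between 79.4 and 41226 bases, with a median of 2247 bases, and this length exceeded the genomic span of the locus in 19 tested members. BRCA2 had a mean of 447.7 ± 39.5 FPKM in HP ovaries and 352.4 ± 72.9 FPKM in LP ovaries (SD, n = 3 each), but at an implied length of 237 bases. MRE11 had 2.06 ± 0.14 FPKM in HP ovaries and 1.57 ± 0.35 FPKM in LP ovaries (SD, n = 3 each), at an implied length of 41226 bases. The highest counts among the members, by library size and not by length, were those of RAD23B, which stabilises XPC, with 277, 253 and 336 CPM in HP ovaries and 308, 251 and 310 CPM in LP ovaries, and of DDB1, the adaptor of the CUL4 ligases, with 239, 253 and 242 CPM in HP ovaries and 221, 244 and 286 CPM in LP ovaries. Neither separated the groups.

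By FPKM the highest members of each pathway were the joined locus of ACACB and UNG and CUNH14orf37 in base excision repair, CUL4B and RAD23B in nucleotide excision repair, RFC1 and RPA3 in mismatch repair, BRCA2 and BRCA1 in homologous recombination, POLL and XRCC5 in end joining, and BRCA2 and the joined locus of FANCG in the Fanconi anemia pathway. The lowest tested members were VWA5B1 and POLE4 in base excision repair, LOC110356317 and POLE4 in nucleotide excision repair, LOC110363051 and EXO1 in mismatch repair, FSBP and RAD52 in homologous recombination, SHISA9 and MRE11 in end joining, and REV1 and RMI1 in the Fanconi anemia pathway. CUL4B had 774 ± 84.1 FPKM in HP ovaries and 698 ± 33.6 FPKM in LP ovaries (SD, n = 3 each), the highest mean of all members, at an implied length of 281 bases. Several of these ranks go with a very short or very long implied length, so the order is not one of abundance.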

How the data were processed

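The authors deposited 1 table of 34346 loci, in which every ovary has a column of raw counts (whole numbers) and a column of FPKM. Per the labels' processing notes, Cutadapt 1.9, FastQC 0.10.1, HISAT2 2.0.4 and StringTie 1.3.4 were used. The methods name the Cliv_1.0 assembly, and how the counts were made is not given in the sources used here. All value columns were used, and 0 were left out.

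Counts were scaled by TMM and tested with edgeR 4.0.16 (quasi-likelihood, two-sided, no covariates, R 4.3.3) in all 6 ovaries, on the 28274 loci whose FPKM averaged 0.1 or more. The Benjamini-Hochberg adjustment ran over these loci. Total counts were 97875183 to 108669967. The common biological coefficient of variation over all tested loci was 0.423. The median standard error of the log2 fold change was 0.18 over the tested members and 0.27 over all tested loci. An exact permutation test of 3 against 3 ovaries cannot go below 0.1. Alternatives were DESeq2 1.42.0, limma 3.58.1 on log2(FPKM + 1) and log2(FPKM + 0.1), other scalings and filters, and leaving out each ovary.

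The loci named are BRCA1, BARD1, every member with an unadjusted p under 0.05, the highest and lowest of each pathway by FPKM and by fold change, and core genes of each pathway. Not all core genes were covered. ERCC1 and LIG1 of nucleotide excision repair were not found by name, and PRKDC of end joining was found but was not a member. Members, lists and named loci were chosen with earlier results of these data known. Sequences and promoter motifs were not analysed here. Some members are counted in the totals but not reported singly here.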

Additional observations from a re-analysis of the deposited data

How the results depend on the processing

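No member had an adjusted p under 0.05 in any of the 13 alternative fits. The count of members at an unadjusted p under 0.05 (10, of which 7 higher and 3 lower in HP ovaries) was 18 with limma on log2(FPKM + 1), with 16 higher and 2 lower. The number higher was 11 with library totals only, with DESeq2 and with limma on log2(FPKM + 0.1), and the number lower was 2, 4 and 2 in these fits. In either direction, these fits gave 8.72%, 10.1% and 8.72% of the tested members, against 8.47%, 10.2% and 8.15% of all tested loci. With limma on log2(FPKM + 1) the shares were 12.1% and 8.75%. Leaving out single ovaries gave 4 to 22 members, of which 4 to 20 higher (4 without LP5, 20 without LP4) and 0 to 4 lower (0 without LP5). In either direction that was 2.70% to 14.8% of the tested members, against 5.20% to 9.12% of all tested loci. Shares of all tested loci by direction are not given for the alternative fits. Of the 10 loci, 4 remained without LP5 and 6 to 8 without each other ovary. The members past the limits on p and fold were 0 to 2 when single ovaries were left out and 0 in the other alternatives. The share of all tested loci past these limits was computed in the main fit alone, so this count is not a result about the members. Among the 82 tested members that overlap no other locus, 61 had a log2 fold change above 0, a smaller number because fewer loci were counted. With FPKM in place of CPM, an alternative chosen after seeing the data, 2 members in place of 4 were lower without overlap and 24 in place of 18 higher. The share over all loci was not computed with FPKM, so these counts are not a result about the members. The median log2 fold change of each pathway kept its sign in all alternatives, and that of homologous recombination was 0.078 to 0.22 when single ovaries were left out, lowest without HP3. Of 43 named loci, 4 changed sign in 1 fit each. When single ovaries were left out, LOC110363051 ran from -0.44 to 0.049 (above 0 without HP2), SHISA6 from -0.16 to 0.048 (above 0 without LP6), XRCC6 from -0.046 (without LP5) to 0.51 and HECA from -0.15 (without LP4) to 0.72. The causes were not tested. No paired analysis was possible because HP and LP libraries share no replicate number. The promoter motif search was not run.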

Other observations

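HECA, described as another protein but carrying the KEGG entry of NBN, had 119, 110 and 119 CPM in HP ovaries and 20.3, 121 and 136 CPM in LP ovaries. LP4 alone was low. LP4 was otherwise the LP ovary in which the recombination genes stood nearest to the HP ovaries. CUNH6orf120, which carries entries of nucleotide excision repair and the Fanconi anemia pathway, had 14, 14.2 and 13.4 CPM in HP ovaries and 15.2, 15.1 and 5.43 CPM in LP ovaries, with LP6 alone low. The joined locus of GATA4 and LOC102093681 had 101, 267 and 99.8 CPM in HP ovaries and 265, 127 and 130 CPM in LP ovaries, so that HP2 and LP4 stood above the other 4 ovaries. These loci were picked out after their values were seen.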
